A study of Arabidopsis thaliana with 8 samples.

Results

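Transcript levels of the Alc::LHY line of Arabidopsis thaliana were compared between the start of an ethanol treatment and 8 to 9 h later. The members are the 4 Alc::LHY samples of the arrays at 0 h and at the last time, out of 16 labelled samples on 8 Agilent 2-colour arrays. Alc::LHY seedlings carry an additional copy of LHY behind a promoter that ethanol switches on, in the Col-0 background, and wild-type Col-0 seedlings from the same experiment shared each array. Both lines had grown on MS-agar for 2 weeks with 12 h of light per day. They spent 17 h in continuous light before 5 ml of ethanol reached the roots, and ethanol vapour was then kept up with soaked filter paper. All 16 samples received ethanol, and no line held the switch without the additional copy. A change in Alc::LHY that wild type lacked therefore cannot be told apart from an effect of the switch itself or of another difference between the lines. With no series kept free of ethanol, a change that both lines shared cannot be told apart from a response to the ethanol. The labels give neither the promoter of the switch's regulator nor the number of independent lines. They also omit the hour of the transfer to continuous light, so the time of day of the samples is not known here.

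The 2 replicates are called S and I. Replicate S ended at 9 h with Alc::LHY in Cy5, and replicate I ended at 8 h with Alc::LHY in Cy3. Within a line the dye, the replicate, the slide and the last hour form 1 split and cannot be told apart. The labels do not say that the replicates were separate cultures, and the spread behind each p-value may therefore be technical.

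Plants keep time with a circadian clock built from transcription factors that repress each other in turn. LHY and CCA1 are related MYB-like factors of the morning that repress evening genes such as TOC1. Pseudo-response regulators (PRR9, PRR7, PRR5, TOC1) follow each other through the day, and the evening complex of ELF4, LUX and ELF3 acts at night. REVEILLE (RVE) factors, relatives of LHY, and the LNK co-activators work with this loop from the morning on. The clock sets daily rhythms in photosynthesis genes, starch use, flowering-time genes and defence compounds. The comparison asks which of the changes that wild type went through over these hours were kept in the line with the ethanol-switched copy of LHY.

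Levels are log2 of normalised spot intensity and can be compared between samples of a gene, not between genes. Pairs of levels are given in the order replicate S, replicate I. Changes are log2 differences of 8-9 h minus 0 h with the standard error of the fit (±), each group holding n = 2 samples. A change was called at a Benjamini-Hochberg adjusted p under 0.05 in limma over 21431 genes or unnamed transcripts. In the Alc::LHY dye 50.8% to 63.2% of spots exceeded background, and 0 spots were saturated. The number of arrays limits the precision.

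LHY itself was read by a single faint probe (AT1G01060). Its level in Alc::LHY was 6.30 and 6.11 at 0 h and 7.26 and 7.17 at 8-9 h. It was above background on neither array at 0 h and on both at the last time, so the rise was at least 1.84-fold (1.01 ± 0.15, adjusted p = 0.000904). In wild type the same probe read 6.11 and 6.25 at 0 h and 6.91 and 7.04 at 8-9 h, at least 1.63-fold higher at the end (0.79 ± 0.15). Since the probe was above background at 0 h in neither line, both rises have only these bounds, and whether they differed between the lines is not settled by this probe. With the scanner software's processed signals the Alc::LHY change was 4.1 in place of 1.01. The sources used here do not say whether the induced copy carries the part of the transcript under this probe.

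The seedling label was set against 9 root and 9 shoot markers. All 9 root markers were above background in every Alc::LHY sample at 0 and 8-9 h, and 7 to 9 of the shoot markers were. The summed intensity of the root markers ran from 13255 to 18393 units at 0 h and from 10369 to 15645 at 8-9 h in Alc::LHY. That of the shoot markers ran from 164408 to 218461 at 0 h and from 108050 to 177093 at 8-9 h. Both sums were lower at the later time in both Alc::LHY replicates. In wild type the shoot sum was 184075 to 200727 and then 167561 to 202842, lower at the later time in replicate S only. The wild-type root sum was 15767.8 to 16039.7 and then 12034.5 to 15353.3, lower at the later time in both replicates. The part of any shift between root and shoot RNA in the results below was not tested. In whole seedlings, fewer cells of a type and less RNA per cell cannot be told apart.

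The Alc::LHY line changed far more genes than wild type did. In Alc::LHY 7378 of 21431 genes were called (34.4%), with 3785 higher (17.7%) and 3593 lower (16.8%). In wild type 819 were called (3.82%), with 503 higher (2.35%) and 316 lower (1.47%). All 16 samples share 1 estimate of the spread of a gene. The standard error (median 0.14) is therefore equal in both lines by design and does not show that they were equally noisy. The median size of a change was 0.30 in Alc::LHY and 0.15 in wild type. A change over 1 log2 unit was found in 2024 genes of Alc::LHY and 447 of wild type. All 7378 called genes had the same sign in both replicates, and the levels at 0 and 8-9 h did not overlap in 3721 of the 3785 rises and 3521 of the 3593 falls. The calls rest on these same levels, so neither count is separate support. Their shares over all 21431 genes were not counted. The change itself differed between the lines in 5053 genes, in 2156 of them towards a higher value in Alc::LHY (10.1%) and in 2897 towards a lower one (13.5%). Without normalisation between arrays the Alc::LHY count was 3790, and the share of rises among calls was 64.1% in place of 51.3%. In wild type rises made up 61.4% of the calls, 78.7% without that step and 49.9% with quantile normalisation of all channels. With median centring in place of loess the count of differences was 47, all 47 towards higher values in Alc::LHY.

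**Figure D1:**
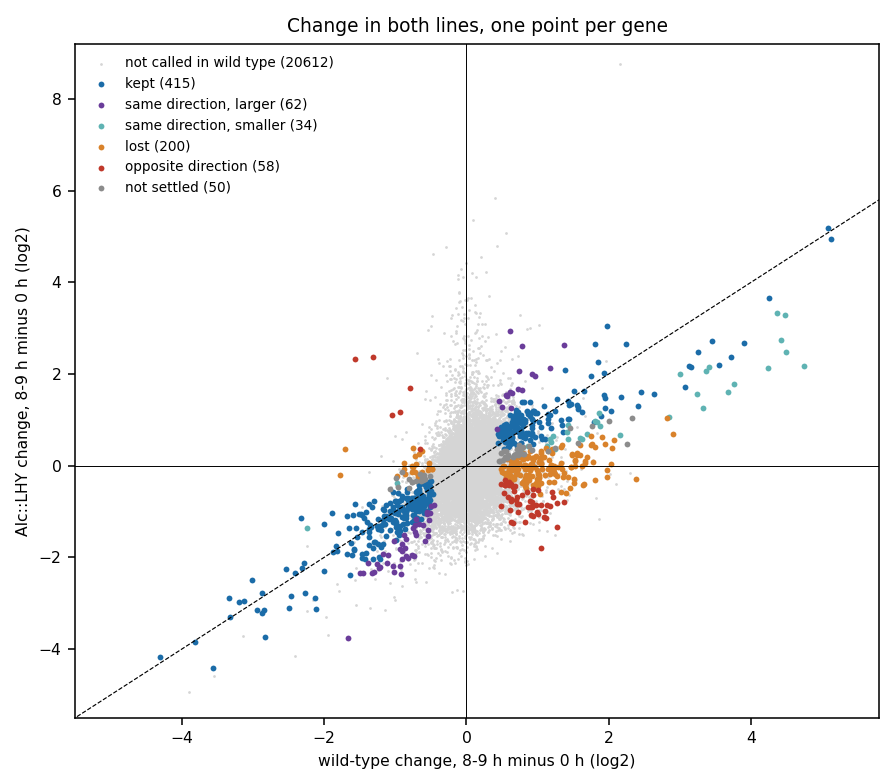
Each point is a gene, with the wild-type change on the x axis and the Alc::LHY change on the y axis (8-9 h minus 0 h, log2). Colours mark the 819 genes called in wild type, the dashed line marks equal changes, and most coloured points in the lower left lie near that line while many on the right lie near or below 0.

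Of the 819 wild-type changes, 415 (50.7%) were kept in Alc::LHY. Kept means that both lines were called with the same sign and that the difference of the changes was not. In 200 genes (24.4%) the change was lost, that is, not called in Alc::LHY and with a called difference. In 58 genes (7.08%) it turned round and was called in the opposite direction. It was larger in Alc::LHY in 62 genes (7.57%), smaller in 34 (4.15%) and not settled in 50 (6.11%). The wild-type values that chose the 819 genes also enter the difference between the lines.

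Falls were kept more often than rises. Of the 316 wild-type falls 224 (70.9%) were kept and 23 (7.28%) lost, whereas of the 503 rises 191 (38.0%) were kept, 177 (35.2%) lost and 52 (10.3%) turned round. For comparison, 16.8% of all genes fell and 17.7% rose in Alc::LHY. This difference between falls and rises has no test of its own, and the share kept was higher for falls in all 21 settings that were run, from 60.0% to 95.3% against 22.2% to 71.4%. The median change of kept rises was 0.89 in Alc::LHY (0.76 in wild type) and that of kept falls -1.06 (-0.96). Lost rises had a median of 0.99 in wild type and of -0.040 in Alc::LHY. Replicate S alone gave -0.015 for that Alc::LHY median and replicate I -0.084. Among the 177 lost rises, 46 pointed up in both Alc::LHY replicates, 64 pointed down in both and 67 disagreed. The class rules themselves hold lost Alc::LHY changes near 0 and kept ones near those of wild type. The medians therefore describe the classes and are no separate result.

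The sizes of these classes depended on the fit. With median centring in place of loess only 92 wild-type changes were called, of which 76 were kept and 0 lost. In that limma fit 2269 genes had an unadjusted p under 0.05 for the difference between the lines. Without the 9 h array of replicate S 65 wild-type changes were called, with 29 kept and 23 lost.

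**Figure D2:**
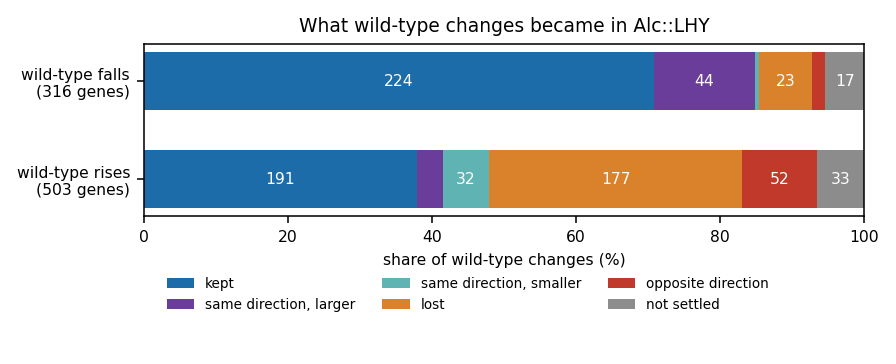
Bars give the share of 503 wild-type rises and 316 wild-type falls (x axis, percent) that fell in each class in Alc::LHY, with gene counts in the bars. The kept part is 70.9% of the falls and 38.0% of the rises.

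The core clock changed in Alc::LHY much as in wild type. Of 14 morning MYB-like and LNK genes, 11 rose and 1 fell in Alc::LHY, against 9 and 1 in wild type. Over all genes 17.7% rose and 16.8% fell in Alc::LHY, against 2.35% and 1.47% in wild type. The median change of the morning genes was 1.18 in Alc::LHY and 1.35 in wild type, where all genes together had -0.015 and 0.017. Of the 10 wild-type changes among the morning genes 9 were kept and CCA1 was smaller. LHY itself is 1 of these 9, although its faint probe does not settle whether the lines differed. Of 13 measured daytime and evening genes, 2 rose and 8 fell in Alc::LHY, and 2 rose and 7 fell in wild type. All 9 of those wild-type changes were kept, among them PRR9, which was above background on neither Alc::LHY array at 0 h. Without normalisation between arrays 6 morning genes and 3 daytime and evening genes were kept, and 1 of the latter list was lost. With median centring 4 and 5 were kept. Over all genes wild type had only 235 and 92 calls in these fits. The Alc::LHY medians of the lists ran from 0.91 to 1.71 and from -1.28 to -0.89 over the 21 settings. Kept changes may still differ between the lines by less than the fit could call.

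CCA1, the closest relative of LHY, had log2 levels of 7.57 and 7.77 at 0 h and 11.18 and 10.82 at 8-9 h in Alc::LHY. The 2 times did not overlap, and the rise was 10.04-fold (3.33 ± 0.26, adjusted p = 4.64e-05). Wild type rose 20.7-fold, from 7.22 and 7.05 to 11.72 and 11.29, and the difference of -1.04 ± 0.30 passed the test (adjusted p = 0.0322). That difference was called in 10 of 20 other settings, from -1.41 to -0.67. Both Alc::LHY samples thus ended below both wild-type samples after starting above them.

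The LNK co-activators held the largest kept rises. LNK4 (AT5G06980) went from 7.29 and 7.06 to 12.27 and 12.43 in Alc::LHY, a 36.1-fold rise (5.18 ± 0.56) beside 33.9-fold in wild type. LNK3 rose 30.8-fold in Alc::LHY (4.95 ± 0.53) and 34.9-fold in wild type (5.13 ± 0.53). LNK2 rose 12.6-fold (3.66 ± 0.28) and 19.1-fold (4.25 ± 0.28). A further probe of LNK2 gave 1.42 in Alc::LHY. LNK1 was above background on no Alc::LHY array at 0 h and on both at the end, a rise of at least 1.31-fold (adjusted p = 0.0223).

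Among the REVEILLE factors RVE1, RVE3, RVE7 and RVE8 rose in both lines. RVE8, which activates evening genes together with the LNK proteins, read 8.33 and 7.78 at 0 h and 9.45 and 9.11 at 8-9 h in Alc::LHY (1.23 ± 0.20, adjusted p = 0.00166; 1.57 ± 0.20 in wild type). RVE1 changed by 1.33 ± 0.30, RVE3 by 1.17 ± 0.23 and RVE7 by 1.19 ± 0.18. RVE2 ran the other way. Its levels fell from 11.15 and 11.03 to 8.27 and 8.15 in Alc::LHY (-2.88 ± 0.44, 7.37-fold), beside -2.13 ± 0.44 in wild type. RVE5 rose in Alc::LHY alone, with a called difference (0.40 ± 0.12, difference 0.44 ± 0.14, called in 9 of 20 other settings), while RVE4 (0.31) and RVE6 (0.20) were not called.

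The daytime regulators PRR7 and PRR9 rose and the later ones fell. PRR7 read 7.06 and 6.92 at 0 h and 9.93 and 9.35 at 8-9 h (2.65 ± 0.25, 6.26-fold), with 0.54 on its other probe. The PRR7 change in Alc::LHY ran from 1.59 to 3.90 over the 21 settings, so its fold depends on the processing. PRR9 was above background on neither array at 0 h, and its rise was at least 1.85-fold (adjusted p = 0.00451). PRR5 fell 3.56-fold in Alc::LHY, from 8.6 and 8.86 to 7.01 and 6.78, with log2 changes from -3.11 to -1.57 over the settings. PRR3 fell 4.38-fold. TOC1, the evening member that represses CCA1 and LHY, read 9.37 and 9.51 at 0 h and 7.70 and 7.45 at 8-9 h, a 3.64-fold fall (-1.86 ± 0.22, adjusted p = 0.000359) beside 3.52-fold in wild type.

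Evening complex genes fell as well. ELF4 went from 10.56 and 11.03 to 9.03 and 8.11 in Alc::LHY (-2.22 ± 0.45), LUX from 10.04 and 10.54 to 8.59 and 8.14 (-1.93 ± 0.28). BOA, a homologue of LUX, fell by 1.14 ± 0.38 on the log2 scale in Alc::LHY and fell by 2.32 ± 0.38 in wild type, and the difference of 1.19 missed the threshold (adjusted p = 0.0795). BOA was called in Alc::LHY in 11 of the 21 settings. FKF1, a blue-light receptor that degrades repressors of flowering, fell 1.97-fold in Alc::LHY and 2.03-fold in wild type. GI (0.27), ZTL (0.28) and LKP2 (-0.11) were not called in Alc::LHY. ELF3 was not measured.

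CHE, a TCP-class repressor of CCA1, was the clock gene called in Alc::LHY with a wild-type value of the opposite sign and the largest difference. In Alc::LHY it read 11.44 and 11.92 at 0 h and 10.58 and 10.47 at 8-9 h, a 2.23-fold fall (-1.16 ± 0.28, adjusted p = 0.0102). In wild type it read 11.57 and 11.69 at 0 h and 12.25 and 12.36 at 8-9 h (0.68 ± 0.28, adjusted p = 0.245). All 4 samples of 8-9 h separate by line, and the difference of the changes was -1.83 ± 0.32 (adjusted p = 0.0037).

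**Figure D3:**
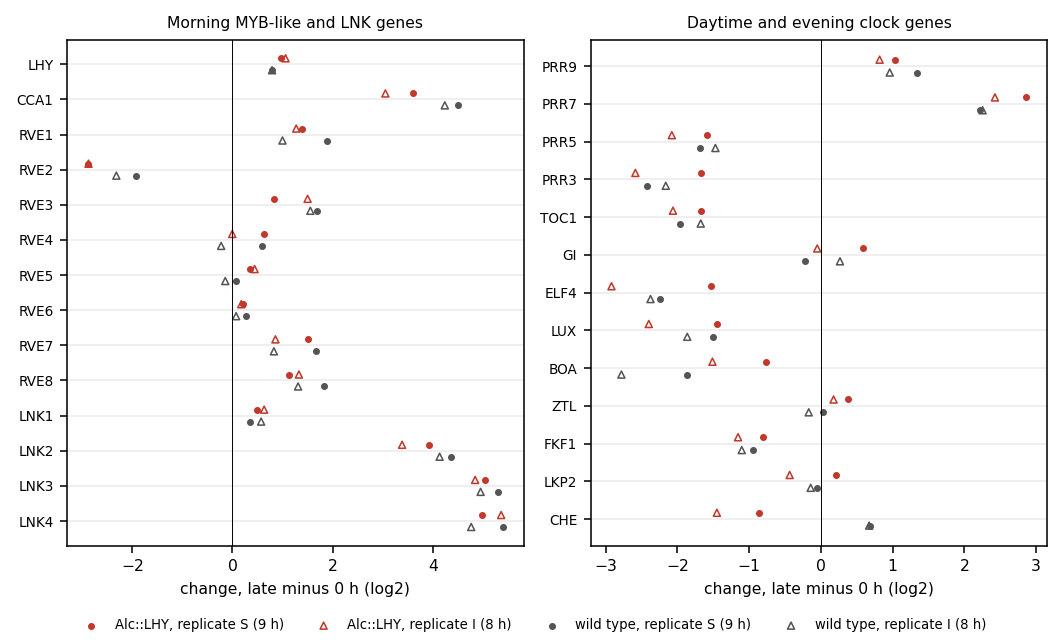
Change of each measured clock gene from 0 h to the last time (x axis, log2), with Alc::LHY in red and wild type in grey, circles for replicate S and triangles for replicate I. Most genes have red and grey marks on the same side of 0, and CHE has them on opposite sides.

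Clock outputs and flowering-time genes were split. Of 18 measured genes, 8 rose and 6 fell in Alc::LHY (17.7% and 16.8% of all genes). Of the 10 wild-type changes among them 7 were kept, 2 lost and 1 smaller. COL2, a relative of the flowering regulator CONSTANS, went from 8.80 and 8.46 to 11.06 and 11.15, 5.57-fold, in Alc::LHY. In wild type it rose 22.5-fold, to 13.28 and 12.63 (difference -2.02 ± 0.31, adjusted p = 0.00237). COL1 had a change of 0.45 in Alc::LHY (adjusted p = 0.0918) where wild type rose by 1.34 ± 0.19, and it counts as lost.

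CYCLING DOF FACTOR genes encode repressors of CONSTANS. CDF3 rose 6.56-fold in Alc::LHY, to 12.28 and 12.20 from 9.54 and 9.51, and 11-fold in wild type. CDF2 and CDF5 were kept too (1.2 and 0.57 in Alc::LHY). CDF1 was lost, with 7.49 and 7.52 at 0 h and 7.73 and 7.78 at 8-9 h in Alc::LHY (0.25 ± 0.20, adjusted p = 0.376) and a wild-type rise of 1.49 ± 0.20. FT, the mobile flowering signal, fell 2.62-fold in Alc::LHY (-1.39 ± 0.16) and 2.38-fold in wild type, with 9 h and 8 h levels of 8.30 and 7.58 in Alc::LHY. The B-box genes BBX19 (1.96 ± 0.17), BBX24 (1.48) and BBX25 (1.5 ± 0.19) were kept rises.

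GRP7, an RNA-binding protein with a rhythm of its own, fell in Alc::LHY (-1.83 ± 0.28, adjusted p = 0.00118). Its wild-type change of -1.0 had an adjusted p of 0.091, and the difference between the lines was not called. The other probes of GRP7 gave -2.06 and -1.86 in Alc::LHY and -1.32 and -0.99 in wild type. GRP8, the partner of GRP7, fell by 0.70 ± 0.18 in Alc::LHY with 0.10 in wild type, and that difference was called (adjusted p = 0.0211). CAT3, an evening catalase gene, read 13.48 and 14.20 at 0 h and 12.11 and 12.25 at 8-9 h in Alc::LHY (3.16-fold down) and 13.35 and 14.04 at 0 h and 13.29 and 13.80 at 8-9 h in wild type. Its difference between the lines was -1.51 ± 0.28 (adjusted p = 0.00471), and its 7 other probes gave -1.56 to -1.09 in Alc::LHY.

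Among the other kept changes, those largest in wild type were those of AT5G23240, RbcX1, CCL, AT2G33830, JMJD5 and WCRKC1 among falls and of the LNK genes, BBX28, PIF4 and CDF3 among rises. CCL read 13.79 and 13.82 at 0 h and 10.26 and 8.54 at 8-9 h in Alc::LHY, 21.2-fold lower (-4.41 ± 0.54), and fell 11.8-fold in wild type. AT5G23240 read 11.45 and 11.29 at 0 h and 7.62 and 6.74 at 8-9 h (18.18-fold lower, and 19.7-fold in wild type). RbcX1, a chaperone of Rubisco assembly, fell 14.4-fold and 14.1-fold. JMJD5, a histone demethylase-like clock gene, gave nearly equal falls of -3.30 ± 0.29 and -3.32 ± 0.29. BBX28 rose from 6.93 and 6.76 to 9.78 and 9.25 in Alc::LHY, 6.36-fold, and 14.9-fold in wild type (difference -1.23 ± 0.59, adjusted p = 0.164). Over the 21 settings its log2 change in Alc::LHY ran from 2.26 to 4.44. WCRKC1, a thioredoxin-like gene, changed by -2.94 ± 0.49 and -3.13 ± 0.49, and AT2G33830 by -2.89 ± 0.65 and -3.33 ± 0.65.

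Lost rises were led by SAG29, a SWEET sugar transporter gene. In wild type it went from 6.71 and 6.55 to 9.85 and 9.2, 7.45-fold. In Alc::LHY it read 6.83 and 7.64 at 0 h and 7.89 and 7.96 at 8-9 h (0.69 ± 0.56, adjusted p = 0.377). BBX30 rose 7.06-fold in wild type, while its Alc::LHY change of 1.03 ± 0.37 stood just outside the threshold (adjusted p = 0.0542). GSTF12, the glutathione transferase that carries anthocyanins to the vacuole, had 11.40 and 10.08 at 0 h and 11.08 and 9.8 at 8-9 h in Alc::LHY (-0.30 ± 0.52, adjusted p = 0.695). Its wild-type samples rose 5.2-fold, from 11.14 and 8.90 to 12.83 and 11.96. LEA3, AT3G55240 and AT5G44575 had Alc::LHY changes of 0.56, 0.38 and 0.029, none of them called. Their wild-type rises were 4.23-fold, at least 4.04-fold and 4.07-fold.

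Over 20 other settings the 12 genes named as lost were so classed in 6 (SAG29) to 16 (LEA3 and PDC2). Lost falls were fewer. DREB2B, a drought-response factor, read 8.79 and 8.86 at 0 h and 9.15 and 9.23 at 8-9 h in Alc::LHY (0.36 ± 0.25, adjusted p = 0.304). In wild type it fell 3.27-fold, to 7.15 and 7.27, and the lines did not overlap at the last time (difference 2.07 ± 0.29, adjusted p = 0.00157). PDC2, a pyruvate decarboxylase gene of fermentation, read 12.35 and 12.83 at 0 h and 12.33 and 12.43 at 8-9 h in Alc::LHY and fell 3.42-fold in wild type (difference 1.56 ± 0.30, adjusted p = 0.00615). The plastid dicarboxylate transporter gene DiT2.2 changed by -0.063 in Alc::LHY and -0.88 in wild type. AT5G18525 (-0.19 and -0.87), AT2G37580 (-0.0075 and -0.77) and the poly(A) polymerase gene PAPS2 (-0.15 and -0.76) complete the 6 with the largest wild-type falls.

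Of the 58 genes whose change turned round, 52 had risen and 6 had fallen in wild type. CYP76C1, a cytochrome P450 gene, was the widest apart of those named. It read 11.62 and 11.10 at 0 h and 13.62 and 13.74 at 8-9 h in Alc::LHY, a 5.01-fold rise (2.32 ± 0.22), while wild type fell 2.96-fold to 9.77 and 9.84 (difference 3.89 ± 0.25, adjusted p = 3.91e-05). AT2G44310 and AT3G01310 rose in Alc::LHY (1.68 ± 0.18 and 1.16 ± 0.20) and fell in wild type (-0.80 and -0.94). AT3G16740 did so to a smaller extent (0.37 ± 0.12 and -0.65). In the other direction APS3, an ATP sulfurylase gene of sulphate assimilation, fell by 0.58 ± 0.19 in Alc::LHY and rose by 1.2 ± 0.19 in wild type. CB5-C, a cytochrome b5 gene, gave -0.68 ± 0.23 and 1.22 ± 0.23. The beta-glucosidase gene BGLU40 gave -0.89 ± 0.28 and 1.17 ± 0.28. AT5G20740 changed by -0.80 ± 0.21 and AT5G03120 by -0.81 ± 0.27 in Alc::LHY against wild-type rises of 1.37 and 1.27. These 5 falls were called in Alc::LHY in 8 (CB5-C) to 15 (BGLU40) of 21 settings and the rise of AT3G16740 in 8, while the other 3 rises were called in all 21. The sign in Alc::LHY was the same in all 21 settings for each of these 9 genes. The opposite calls in both lines held less often, in 15 of 20 settings for CYP76C1, 11 for AT3G01310, 6 for AT2G44310 and 7 to 12 for the other 6.

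**Figure D4:**
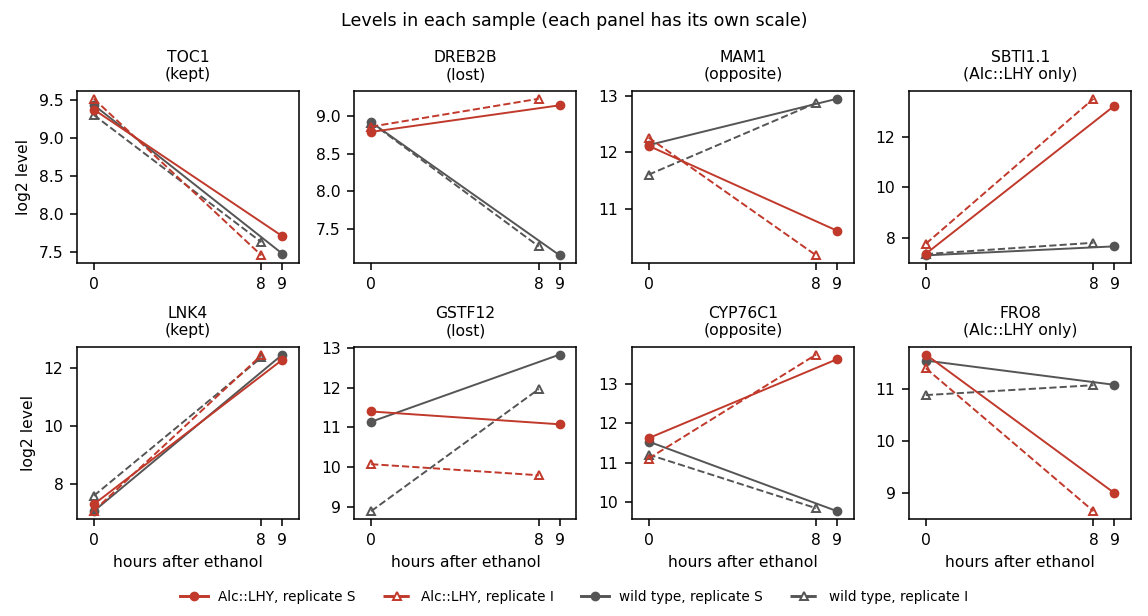
Log2 level (y axis, scale of its own in each panel) against hours after ethanol for 8 genes, in Alc::LHY (red) and wild type (grey), with replicate S as filled circles and replicate I as open triangles. TOC1 and LNK4 moved together in both lines, DREB2B and GSTF12 moved in wild type only, MAM1 and CYP76C1 moved in opposite directions, and SBTI1.1 and FRO8 moved in Alc::LHY.

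Aliphatic glucosinolates are sulphur-containing defence compounds made from methionine. Of 17 measured genes of this pathway, 0 rose and 13 fell in Alc::LHY (17.7% and 16.8% of all genes). In wild type 10 rose and 0 fell (2.35% and 1.47% of all genes). At an unadjusted p under 0.05 the limma fit gave 0 rises in Alc::LHY as well. The list's median change was -0.90 in Alc::LHY, against 1.04 in wild type, and the difference was lower in Alc::LHY in 16 of the 17 (13.5% of all genes). Of the 10 wild-type rises, 7 turned round, 3 were lost and 0 kept.

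MAM1, which starts the chain elongation of methionine, read 12.11 and 12.26 at 0 h and 10.62 and 10.18 at 8-9 h in Alc::LHY. Both late samples lay below both early ones, a 3.46-fold fall (-1.79 ± 0.22, adjusted p = 0.000388). Wild type went from 12.13 and 11.60 to 12.95 and 12.87, 2.06-fold higher, and the difference was -2.83 ± 0.25 (adjusted p = 0.000193). BCAT4, an aminotransferase of the same elongation pathway, fell by 1.14 ± 0.24 and rose by 1.11 ± 0.24.

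Core-structure enzymes followed. CYP83A1 read 12.96 and 13.27 at 0 h and 12.30 and 11.28 at 8-9 h in Alc::LHY (-1.33 ± 0.30) and rose 2.4-fold in wild type. The glutathione transferase gene GSTF11 (-1.13 ± 0.22 and 1.09 ± 0.22), the C-S lyase gene SUR1 (-0.90 ± 0.15 and 0.87 ± 0.15) and the glucosyltransferase gene UGT74C1 (-0.77 ± 0.13 and 0.62 ± 0.13) turned round too. The sulfotransferase genes SOT18 (-0.94 ± 0.14) and SOT17 (-0.87 ± 0.19), GGP1 (-0.95 ± 0.31) and FMO-GSOX1 (-0.58 ± 0.18) fell in Alc::LHY with no call in wild type. CYP79F1 fell by 1.52 ± 0.37, with -0.43 on its other probe.

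The regulators moved in the same sense. MYB29, an activator of the pathway, read 8.18 and 8.49 at 0 h and 6.95 and 7.27 at 8-9 h in Alc::LHY (2.35-fold lower) and rose 1.77-fold in wild type. MYB28, its main activator, fell by 0.49 ± 0.13 with 0.34 in wild type. IMD1 (-0.38), IPMI2 (-0.49) and the plastid transporter gene BAT5 (-0.57) were not called in Alc::LHY, and their wild-type rises of 1.51, 1.46 and 1.32 counted as lost. MAM3 was the member with a positive value in Alc::LHY (0.84, adjusted p = 0.385). Across the 21 settings 5 to 13 members were called lower in Alc::LHY and 0 higher, at list medians from -1.0 to -0.76. The number that turned round ran from 0 to 9. It was 0 with median centring, without normalisation between arrays and without the arrays of 9 h in S, 0 h in I or 8 h in I, and with median centring 0 differences between the lines were called.

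Light-harvesting antenna genes encode the chlorophyll-binding proteins of both photosystems. Of 19 measured, 10 rose in wild type and 6 in Alc::LHY, where 2 fell (2.35%, 17.7% and 16.8% of all genes). The median change was 1.77 in wild type and 0.49 in Alc::LHY. All 19 had a smaller or more negative value in Alc::LHY than in wild type, 10 of them with a called difference (13.5% of all genes). Of the 10 wild-type rises 3 were kept, 3 smaller, 1 lost and 3 not settled.

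LHCB2.3 read 11.31 and 12.06 at 0 h and 14.01 and 13.73 at 8-9 h in Alc::LHY, 4.54-fold higher (2.18 ± 0.41). Wild type went from 11.00 and 10.51 to 15.41 and 15.60, 26.8-fold higher (difference -2.56 ± 0.47, adjusted p = 0.00468). LHCB2.2 rose by 1.57 ± 0.46 against 3.24 ± 0.46, and LHCB4.2 by 0.86 ± 0.20 against 1.87 ± 0.20. LHCB2.1 (2.16 ± 0.34), LHCB3 (1.72 ± 0.42) and LHCB1.5 (1.29 ± 0.31) were kept. LHCB1.1 counted as lost on its brightest probe (0.48, adjusted p = 0.276), whose single replicates gave 1.3 in S and -0.34 in I, while its other probes gave 2.83 and 1.90. The replicates were unequal in this list. In Alc::LHY the change was lower in replicate I than in replicate S in each of the 19 genes, a split that dye and hour share. The list's Alc::LHY median was -0.020 without the 9 h array of S and 1.07 without the 8 h array of I, with 1 and 7 rises called. The called differences between the lines numbered 11 and 1 in these fits, and 0 with median centring. LHCA6, a minor antenna gene of photosystem I, fell from 14.73 and 14.59 to 13.49 and 13.13 in Alc::LHY alone (-1.35 ± 0.13, difference -1.12 ± 0.16). Several LHCB genes are near-identical, and signal shared between them cannot be told apart.

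In chlorophyll synthesis the wild-type rises were lost or smaller. Of 11 measured genes, 5 rose in wild type and 2 in Alc::LHY, and 2 fell in Alc::LHY. Over all genes 2.35% rose in wild type, and 17.7% rose and 16.8% fell in Alc::LHY. The list's Alc::LHY counts are thus near those of all genes. Of the 5 wild-type rises 3 were lost, 2 were smaller and 0 kept. The lost ones numbered 0 without the arrays of 0 h in S, 9 h in S or 8 h in I and with median centring, and 1 was kept in some settings. Called differences went from 7 to 1 without the 8 h array of I. HEMA1, which starts tetrapyrrole synthesis, read 7.99 and 8.33 at 0 h and 8.35 and 8.89 at 8-9 h in Alc::LHY (0.46 ± 0.17, adjusted p = 0.0596) and rose by 1.59 ± 0.17 in wild type. GUN4 (-0.21 against 1.11) and CHL27 (-0.046 against 0.90) were lost. CHLH, a subunit of magnesium chelatase, rose 1.86-fold against 2.7-fold, and CAO 1.62-fold against 3.22-fold. PORB, a protochlorophyllide reductase gene, fell 6.13-fold in Alc::LHY, from 12.48 and 13.14 to 10.53 and 9.86, and its other probes gave -2.16 to -0.69. CHLD fell slightly (-0.38 ± 0.13, adjusted p = 0.0481).

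Rubisco and Calvin cycle genes had small falls. Of 10 measured, 8 fell in Alc::LHY and 0 rose (16.8% and 17.7% of all genes), with a median of -0.44. In wild type 0 were called by limma (3.82% of all genes). RCA, which activates Rubisco, fell by 0.66 ± 0.16 and SBPASE fell by 0.55 ± 0.11, and the differences from wild type were -0.97 and -0.41. That of SBPASE was called in 4 of 20 other settings and that of RCA in 15, and the second probe of SBPASE gave -0.46 in Alc::LHY, against -0.24 in wild type. The falls of GAPA (-0.63 ± 0.16) and GAPB (-0.53 ± 0.13) had no called difference. With median centring, without normalisation between arrays or without the 0 h array of replicate I, 0 of these 10 were called, at list medians of -0.35, -0.40 and -0.33.

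Starch breakdown at night runs through glucan phosphorylation, beta-amylases and the export of maltose, and its wild-type falls were kept or larger in Alc::LHY. Of 16 measured genes, 11 fell in Alc::LHY and 8 in wild type (16.8% and 1.47% of all genes), with medians of -0.98 and -0.62. Of the 8 wild-type falls 7 were kept, 1 was larger and 0 were lost. PWD, a glucan-phosphorylating enzyme, read 9.74 and 9.71 at 0 h and 8.36 and 8.2 at 8-9 h in Alc::LHY, a 2.72-fold fall (-1.44 ± 0.17) beside 2.77-fold in wild type. DPE1 gave -1.38 ± 0.15 and -1.37 ± 0.15. PHS2, a cytosolic phosphorylase, went from 12.49 and 12.58 to 10.65 and 9.67 (5.2-fold), and the phosphatase gene SEX4 fell 3.29-fold. GWD1 (-1.32), ISA3 (-1.36) and LDA (-0.85) were kept falls as well. BAM3, the main plastid beta-amylase gene, fell further in Alc::LHY (-2.31 ± 0.28) than in wild type (-1.3 ± 0.28, adjusted p of the difference = 0.0481). PHS1 (-1.11 ± 0.15) and LSF1 (-0.38 ± 0.11) fell in Alc::LHY with no call in wild type and a called difference. The list's Alc::LHY median ran from -1.10 to -0.83 over the 21 settings. Falls in Alc::LHY numbered 8 without normalisation between arrays and 8 with median centring. In these fits 3 and 2 changes were kept and 0 lost. Wild type had only 235 and 92 calls over all genes there, so few changes could count as lost. Further probes of PWD and SEX4 gave smaller falls, down to -0.55 and -0.21.

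**Figure D5:**
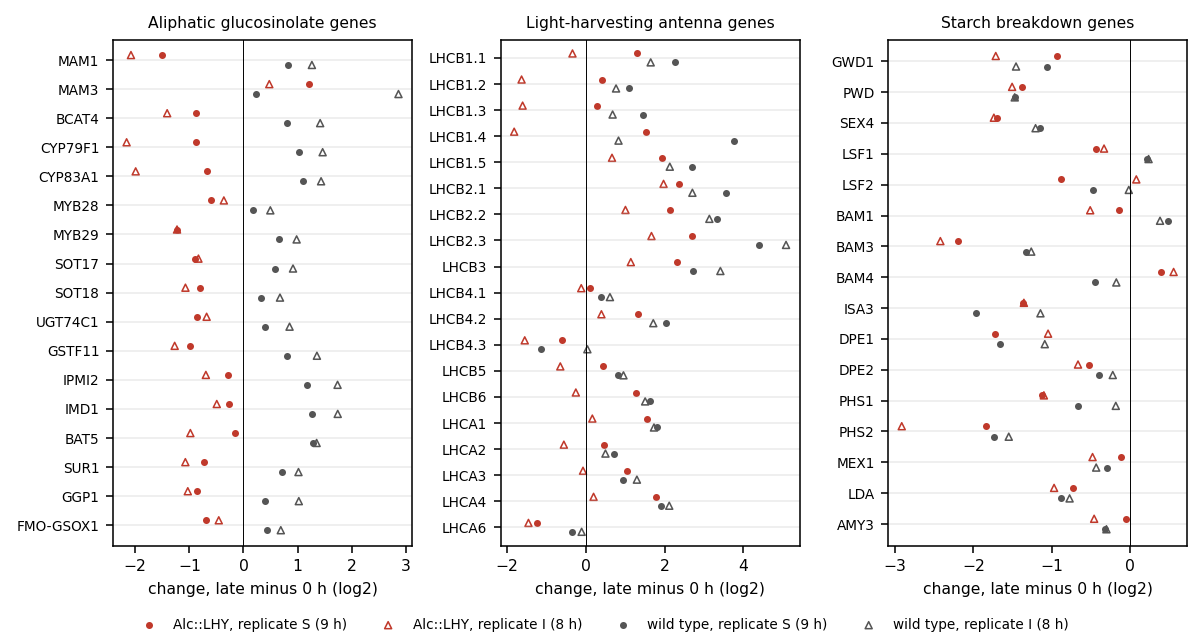
Change from 0 h to the last time (x axis, log2) for each measured gene of 3 lists, with Alc::LHY in red, wild type in grey, circles for replicate S and triangles for replicate I. Of 17 glucosinolate genes 16 have red marks below 0 and grey marks above it, 17 of 19 antenna genes have red marks to the left of grey ones in both replicates, and starch breakdown genes have both colours mostly below 0.

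Starch synthesis genes were mixed. Of 12 measured, 4 rose and 4 fell in Alc::LHY (17.7% and 16.8% of all genes). GBSS1, the amylose-making enzyme under clock control, rose by 1.61 ± 0.49 in Alc::LHY, from 9.66 and 8.52 to 10.91 and 10.49, and by 3.68 ± 0.49 in wild type (adjusted p of the difference = 0.0257). SS4 and the branching enzyme gene SBE2.1 were kept falls (-1.46 ± 0.24 and -1.23 ± 0.19). SS1 rose in Alc::LHY alone (1.2 ± 0.13, difference 0.78 ± 0.15), and SS2 rose by 0.95 ± 0.13.

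Phenylpropanoid and flavonoid genes make ultraviolet-absorbing pigments. Of 17 measured, 10 fell and 1 rose in Alc::LHY (16.8% and 17.7% of all genes). In wild type 3 rose and 0 fell (2.35% and 1.47% of all genes). Their median was -0.64 in Alc::LHY and 0.46 in wild type, and 9 had a called difference, all lower in Alc::LHY (13.5% of all genes). Falls numbered 3 and differences 4 without the 8 h array of I, and 3 and 0 with median centring. 4CL1 read 11.32 and 11.33 at 0 h and 9.74 and 9.84 at 8-9 h in Alc::LHY, 2.88-fold lower (-1.53 ± 0.14), beside a change of -0.021 ± 0.14 in wild type that was not called. FLS1, the flavonol synthase gene, fell 2.71-fold (-1.44 ± 0.16), CHI 1.87-fold and PAL1 2.11-fold. CHS (-0.71 ± 0.21), F3H (-0.87 ± 0.23) and C4H (-0.57 ± 0.13) fell with called differences. PAL2 was a kept rise (0.42 ± 0.13), UF3GT was lost and the rise of DFR in wild type was not settled in Alc::LHY (0.47, adjusted p = 0.526).

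Growth regulators of the PIF family, which act in darkness and shade, were split. PIF4 read 8.67 and 9.29 at 0 h and 11.03 and 11.34 at 8-9 h in Alc::LHY (4.61-fold higher, and 11.7-fold in wild type). PIF5 rose 5.57-fold on its brightest probe, and its other probe gave 1.09. Both rises were kept, with differences of -1.34 ± 0.54 and -0.78 ± 0.46 that were not called. PIF7 (0.32 against 1.05) and the auxin-response gene IAA19 (0.18 against 0.80) were lost. PIF3 fell in Alc::LHY alone (-1.11 ± 0.15, difference -1.0 ± 0.18), with -0.16 on its other probe. EXPA1, an expansin that loosens cell walls, fell from 12.18 and 11.74 to 11.19 and 10.29 (-1.22 ± 0.21, difference -1.92 ± 0.24).

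Of the 10 largest rises of Alc::LHY among annotated genes, only LNK3 and LNK4 were called in wild type. In 3921 genes the change was called in Alc::LHY and in the difference but not in wild type, with 1885 rises and 2036 falls. In a further 2888 it was called in Alc::LHY alone without a called difference. SBTI1.1, a subtilisin-like protease gene, went from 7.35 and 7.75 to 13.26 and 13.54 in Alc::LHY, 57.6-fold higher (5.85 ± 0.23, adjusted p = 1.8e-06). Wild type read 7.29 and 7.34 at 0 h and 7.65 and 7.79 at 8-9 h. EMB3120, an embryo-defective gene, rose 33.8-fold (5.08 ± 0.28) and AT1G12630 24.7-fold (4.63 ± 0.30). EXL4 of the EXORDIUM-like family read 10.71 and 11.65 at 0 h and 15.54 and 16.38 at 8-9 h (27.5-fold). AT4G29640, AT5G62730, AGL86 and AT3G63360 were above background on neither Alc::LHY array at 0 h. They rose at least 41.2-fold, 27.8-fold, 22-fold and 21.5-fold. TA44692_3702, an assembled sequence without a locus, rose further than any named gene (8.77 ± 0.76), but its 0 h levels of 6.63 and 9.90 lay far apart. It was singled out after its values were seen.

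Of the 10 largest falls 6 were called in wild type too. PCC1, a pathogen-responsive gene with a daily rhythm, read 13.97 and 13.54 at 0 h and 8.70 and 8.95 at 8-9 h in Alc::LHY, 30.5-fold lower (-4.93 ± 1.16, adjusted p = 0.0097). Its wild-type samples were widely spread, with 14.53 and 11.54 at 0 h, and their change of -3.90 ± 1.16 was not called. Its neighbour AT3G22235 fell by 3.72 ± 0.81, the defence gene ACD6 fell by 4.15 ± 0.83 and AT1G19960 fell by 3.29 ± 0.57, again with no call in wild type and no called difference. BT2, a BTB and TAZ domain gene, fell 13.3-fold, a kept change with -1.13 on its other probe. GER3, a germin-like protein gene, fell further in Alc::LHY (-3.75 ± 0.38) than in wild type (-1.67 ± 0.38, difference -2.08 ± 0.44). Its other probe gave -2.90 and -2.37, and the fall was classed as larger in 7 of 20 other settings.

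A call in Alc::LHY and in the difference without one in wild type marked 2036 falls, of which the 6 largest are given here. FRO8, a ferric reductase gene, was the steadiest of them. It read 11.66 and 11.40 at 0 h and 8.99 and 8.64 at 8-9 h in Alc::LHY, 6.56-fold lower (-2.71 ± 0.16, adjusted p = 1.18e-05), while wild type stayed between 10.88 and 11.54. ECS1 fell 8.82-fold in Alc::LHY (-3.14 ± 0.37) with -1.14 in wild type (adjusted p = 0.143). BT1, a relative of BT2, fell 7.29-fold, from 11.67 and 11.40 to 8.69 and 8.65. AT14A (-2.73 ± 0.37), AT2G43530 (-2.55 ± 0.26) and PORB, described above, make up the rest.

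Among 22 measured genes of abscisic acid perception and signalling, 9 fell and 0 rose in Alc::LHY (16.8% and 17.7% of all genes), with a median of -0.43. The falls numbered 3 without normalisation between arrays, 5 with median centring and 5 without the 0 h or the 8 h array of I. The rises numbered 0 to 2 over the settings. The kinase gene SNRK2.2 (-0.90 ± 0.14 and -0.91 ± 0.14) and the transcription factor gene ABF1 (-1.68 ± 0.23 and -1.62 ± 0.23) were kept falls. ABF1 read 9.02 and 9.13 at 0 h and 7.63 and 7.17 at 8-9 h in Alc::LHY. ABF2 fell with a called difference (-1.13 ± 0.13, difference -0.73 ± 0.15), and SNRK2.3 fell by 0.82 ± 0.14 without one. The receptor genes PYL4 (-0.28 against 1.02) and PYL6 (0.093 against 0.63) were lost rises.

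Of 10 measured cold-regulated genes 5 were called in Alc::LHY, 2 rises and 3 falls, where 34.4% of all genes were called, and 0 in wild type by limma. KIN1 read 9.12 and 8.6 at 0 h and 11.06 and 11.29 at 8-9 h in Alc::LHY (4.97-fold higher) and its near-identical neighbour COR6.6 rose 2.74-fold, and their signals may be shared. COR47 (-1.54 ± 0.47) and COR15B (-1.05 ± 0.27) fell.

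Genes of ethanol use, fermentation and low oxygen give the background of the treatment. Of 14 measured, 1 was called in Alc::LHY, the ethylene receptor gene ETR2 (0.57 ± 0.16), and 1 in wild type, PDC2. Over all genes 34.4% and 3.82% were called. ADH1, the alcohol dehydrogenase gene, had 8.92 and 7.83 at 0 h and 9.17 and 8.53 at 8-9 h in Alc::LHY (0.47 ± 0.34, adjusted p = 0.317). HRA1 (0.37), SUS1 (-0.26) and SUS4 (-0.69) were not called. Of 9 heat shock genes HSP17.4 rose (1.16 ± 0.37, adjusted p = 0.0358). HSP17.6A (0.32), HSP17.6II (0.21) and HSFA2 (-0.17) were among the 8 that were not called.

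The root markers were mixed in Alc::LHY, where 1 of 9 rose and 3 fell (17.7% and 16.8% of all genes). COBL9, a root hair gene, went from 8.09 and 8.76 to 10.61 and 11.15, 5.49-fold higher (2.46 ± 0.38, difference 3.15 ± 0.44). The root hair expansin genes EXPA7 (0.075) and EXPA18 (-0.53) were not called. SHR and SCR, which pattern the root endodermis, fell (changes of -0.94 ± 0.16 and -0.65 ± 0.13), as did THAS1 of root triterpene synthesis (-1.93 ± 0.34). The shoot markers were mostly lower. Of 9, 8 had a value below 0 in Alc::LHY (median -0.40, and 0.18 in wild type), and 5 of the differences were called lower (13.5% of all genes). TMM, a receptor-like protein of stomatal lineages, rose (1.38 ± 0.19). CER1 of wax synthesis (-1.49 ± 0.27), ATML1 of the epidermis (-0.56 ± 0.17) and RCA fell. RBCS1A fell on its brightest probe (-0.36 ± 0.12), while its other probes gave -0.28 to 0.087. The falls called among shoot markers were 4 here, 1 with averaged probes, and 2, 3, 1 and 0 without the arrays of 0 h in S, 9 h in S, 0 h in I and 8 h in I. None of these 9 root or 9 shoot markers was called in wild type.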

How the data were processed

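Each of 8 Agilent 2-colour arrays carried Alc::LHY and wild-type RNA. Per the file headers, the deposited scanner output held the median spot and background intensity of each dye and the log10 ratio of Cy5 over Cy3 from Feature Extraction 10.7.3.1. The series matrix deposited by the authors held the same log10 ratios turned to Alc::LHY over wild type (correlation at least 0.999999, largest difference 0.00490, column medians 0). Aligners play no part, and the growth details come from the labels' protocols.

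Of 45220 features 1417 were controls. Median signals were used because the files hold no mean signals, which the plan had named. They were corrected with normexp (offset 50), loess-normalised within arrays and Aquantile-normalised between arrays. Outlier spots (161 over 8 arrays) were left out. Probes well above background in either dye on at least 2 arrays were kept (28465 of 43603). The brightest probe stood for a gene, giving 21431 genes or transcripts, 18462 with a locus. Of 27803 accessions 26259 were found in the RefSeq genes. Of 5381 genes with several probes, 0 had Alc::LHY changes beyond 1 in opposite directions. Median intensity was 53 to 70 in Cy3 and 117 to 140 in Cy5.

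Log2 values of all 16 channels were fitted with limma 3.58.1 (separate channels, statmod 1.5.0, R 4.3.3) with 8 groups of line and time, a dye term and the replicate number as a block. The correlation within spots was 0.332, with 6 residual and 3.56 prior degrees of freedom. P-values were Benjamini-Hochberg adjusted over all genes. Plots used matplotlib 3.10.9. A gene not above background on either array of a group has only a bound there: its fold is given as at least the bright group's mean over the lowest signal well above background, or over its own if higher, on each array. The 2 dyes of such a bound may differ in bias.

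Whether replicate numbers pair samples was checked from their deviations from group means. Same-numbered Alc::LHY samples correlated at 0.351 to 0.505 and wild-type ones at -0.185 to 0.623 across times, so not every pair deviated together. Each number also stands for 1 slide and 1 dye orientation. On simulated data 84% of 100 genes changed by 1 log2 unit and 97% of 100 changed by 2 were recovered in the Alc::LHY contrast over 21431 genes, with 12 false calls. Only these genes were changed there, in Alc::LHY alone, and noise was drawn after normalisation without dye or replicate effects. The simulation therefore does not give the error rate of the real calls.

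Members and the 17 lists (244 loci, 230 measured) were chosen with earlier results of these data known. Named by rule were the 10 largest rises and falls in Alc::LHY, the 6 largest wild-type changes each way among kept, lost and opposite changes, the 6 largest each way called in Alc::LHY and the difference only, both clock lists and, of other lists, the 4 members with the smallest adjusted p. Further list members were named after their values were seen. Alternatives varied the background step, normalisation, probe filter, choice of probe, replicate block, dye term, samples, prior variance and source of ratios, and left out each array.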

Additional observations from a re-analysis of the deposited data

Results flagged for a closer look

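In 70 of the genes named by the rule, the change from 0 h to 8-9 h differed between Alc::LHY and wild type in the test of the difference itself. The values below are the Alc::LHY change minus the wild-type change on the log2 scale, each past an adjusted p of 0.05 in limma over 21431 genes, with n = 2 samples per line and time. The difference was above 0 in 24 genes and below 0 in 46. Genes were partly chosen for such differences, and over all genes 10.1% had a higher and 13.5% a lower change in Alc::LHY.

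Rises called in Alc::LHY alone gave differences of 5.44 for SBTI1.1, 5.09 for AT1G12630, 5.07 for EXL4 and 4.52 for EMB3120. AT4G29640, AT3G63360, AT5G62730 and AGL86 gave fitted values of 5.28, 4.43, 4.37 and 4.34. These 4 were above background on no array at 0 h, so the values are taken against background and are no measure of size. COBL9 differed by 3.15, KIN1 by 2.03, COR6.6 by 2.03, TMM by 1.2, SS1 by 0.78 and RVE5 by 0.44.

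Falls called in Alc::LHY alone had differences of -2.69 for AT14A, -2.57 for FRO8, -2.0 for ECS1, -1.85 for BT1, -1.71 for PORB and -1.48 for AT2G43530. CHE had -1.83, EXPA1 -1.92, PIF3 -1.0 and ABF2 -0.73. The phenylpropanoid genes PAL1, 4CL1, FLS1 and CHI had -1.53, -1.51, -1.24 and -1.12. In photosynthesis, LHCA6 had -1.12, RCA -0.97, SBPASE -0.41 and CHLD -0.73. SOT18 had -1.44. Among tissue markers the values were -1.43 for CER1, -1.09 for ATML1, -1.36 for THAS1, -1.17 for SHR and -0.90 for SCR.

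Lost wild-type rises differed by -2.68 in GSTF12, -2.21 in SAG29, -2.0 in AT5G44575, -1.79 in BBX30, -1.67 in AT3G55240 (above background on no wild-type array at 0 h) and -1.51 in LEA3. Lost falls differed by 2.07 in DREB2B, 1.56 in PDC2, 0.82 in DiT2.2, 0.76 in AT2G37580, 0.68 in AT5G18525 and 0.61 in PAPS2.

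Genes called in opposite directions had 3.89 (CYP76C1), 2.48 (AT2G44310), 2.1 (AT3G01310) and 1.01 (AT3G16740) where Alc::LHY rose. Where Alc::LHY fell, the values were -2.83 for MAM1, -2.59 for CYP83A1, -2.05 for MYB29, -1.39 for UGT74C1, -2.17 for AT5G20740, -2.08 for AT5G03120, -2.06 for BGLU40, -1.90 for CB5-C and -1.77 for APS3. Smaller changes of the same sign gave -2.56 for LHCB2.3, -2.02 for COL2, -1.04 for CCA1, -1.01 for LHCB4.2, -1.0 for CAO and -0.54 for CHLH. GER3, whose fall was larger in Alc::LHY, had -2.08.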

How the results depend on the processing

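The reported counts are 7378 changes in Alc::LHY, 819 in wild type, 5053 differences, 415 changes kept and 200 lost. Without normalisation between arrays Alc::LHY had 3790 calls and wild type 235, with 80 kept and 96 lost; this moved the median of all genes by 0.13 in both lines. With median centring the counts were 2994, 92, 47 differences, 76 kept and 0 lost. Processed signals gave 117 lost. Fitting the 0 and 8-9 h arrays alone gave 540 wild-type calls, 3249 differences, 263 kept and 130 lost. The scanner's log ratio gave 2289 differences and the series matrix 2291. The cause of these shifts was not tested.

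Without the replicate block and the dye term wild type had 423 calls, with 237 kept and 95 lost. Without the replicate block but with the dye term it had 351, with 174 kept and 95 lost. Alc::LHY then had 5710 and 5814 calls.

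Leaving out 1 array at a time gave 3177 to 7495 calls in Alc::LHY, 65 to 786 in wild type, 1043 to 5109 differences, 29 to 366 kept and 23 to 202 lost. Each of the 4 arrays at 0 and 8-9 h moved these counts by more than 1.5 times. Alc::LHY had 4211 calls without 0 h of S, 4161 without 9 h of S, 4043 without 0 h of I and 3177 without 8 h of I. In the same order wild type had 172, 65, 89 and 195, the differences were 2757, 2498, 1822 and 1043, kept changes 95, 29, 52 and 114, and lost ones 42, 23, 31 and 47. The lone sample of a time was assumed to vary like the others, and the correlation within spots was that of all 8 arrays.

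Of 135 named genes 112 were called in Alc::LHY, 72 of them in all 21 settings, and all 112 had the same sign throughout. Classes were less stable: over 20 settings a named gene stayed lost in 6 to 16 and opposite in 3 to 15. LHY, CCA1 and LNK1 had log2 changes of 4.1, 4.09 and 3.14 in processed signals. Dim probes limit the size of a rise from background. Planned promoter motifs were not searched, as no promoter sequence was at hand.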
